A study of Mus musculus with 8 samples.

Results

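The genes described here are 37 genes of the ATF4 response, taken by symbol from a list chosen with earlier results of these data known. They are transcription factors of the integrated stress response, stress effectors, amino acid transporters, enzymes of amino acid and one-carbon metabolism, and cytosolic tRNA synthetases. All 37 were found among the 38355 genes of the count tables and all 37 passed the filter on low counts. RNA was sequenced from whole colon tumours of mice given azoxymethane, a colon carcinogen, with 1 tumour from each mouse. The group Trp53ΔIEC (4 tumours) lacks Trp53 in intestinal epithelial cells, and the group Trp53ΔIECAktE17K (4 tumours) carries in addition the activating E17K form of the kinase AKT. Loss of Trp53 and azoxymethane are common to both groups, so neither is compared. The sources used here do not give the Cre line, the age of the mice or the time after azoxymethane. Because whole tumours were taken, fewer cells of a type and less RNA per cell cannot be told apart in any of the values.

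ATF4 is a transcription factor whose messenger RNA is translated when the initiation factor eIF2 is phosphorylated, as happens when amino acids run short or unfolded protein builds up. It binds with C/EBP partners at a composite element and switches on amino acid uptake and synthesis, tRNA charging and, when stress lasts, genes that limit growth or favour cell death. The growth kinase complex mTORC1, which acts downstream of AKT, is also known to raise ATF4 protein without such stress. Much of this control acts on translation, which counts of RNA do not measure.

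The element itself can be read in the promoters of several of these genes. In RefSeq windows on GRCm38.p6, the 250 bases before the start site were searched on both strands for the 8 letters TGATGNAA, whose reverse complement is TTNCATCA. A window was found for 31 of the 37 genes, and 9 of the 31 (29.0%) held the element. Over all genes tested for expression, 301 of 12032 with a window (2.50%) held it, and 1133 of all 32817 windows (3.45%) did. The genes were chosen as ATF4 targets or as other genes of its response to begin with, so the share describes the list and tests nothing. The 5 stretches printed here show the element in 5 different settings, in capitals, each read on the strand of its gene. That of Chac1 lies at chr2:119351023-119351082 (plus strand), 193 bases before the start. That of Slc7a11 lies at chr3:50443627-50443686 (minus strand) and holds 2 elements, 1 in each orientation, 66 and 47 bases before the start. Those of Asns at chr6:7693210-7693258, Nupr1 at chr7:126625547-126625606 and Tars at chr15:11399659-11399699 (all minus strand) hold elements that begin 23, 110 and 15 bases before the start.
Chac1: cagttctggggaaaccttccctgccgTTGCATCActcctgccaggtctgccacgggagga
Slc7a11: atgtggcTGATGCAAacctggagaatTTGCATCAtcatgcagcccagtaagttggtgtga
Asns: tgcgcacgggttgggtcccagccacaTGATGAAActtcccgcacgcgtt
Nupr1: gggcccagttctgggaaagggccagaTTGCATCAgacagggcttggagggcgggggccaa
Tars: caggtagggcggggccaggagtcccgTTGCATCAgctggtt
Of these 5 genes 1, Chac1, differed between the genotypes at an adjusted p under 0.05, and Tars, with the same 8 letters as Chac1, had a log2 fold change of -0.17. The other members with an element were Vldlr, Pycr1, Aars and Gars.

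Between 18572180 and 26268547 reads were assigned to genes in a tumour, and a member had 34 to 11734 reads in a tumour. Levels are CPM, the counts relative to the size of the library after scaling, and fold changes are Trp53ΔIECAktE17K over Trp53ΔIEC. A gene was called at an adjusted p under 0.05 in edgeR's quasi-likelihood test, with Benjamini-Hochberg adjustment over all 16539 genes tested. In the Trp53ΔIECAktE17K tumours 5 of the 37 members (13.5%) rose, where 3.44% of all genes tested did, and 0 fell, where 0.756% did. The 5 are the amino acid transporter genes Slc7a3, Slc7a5 and Slc3a2 and the stress effector genes Chac1 and Trib3. At an unadjusted p under 0.05, 13 members (35.1%) were higher and 0 lower, against 12.8% and 8.07% of all genes. Every Trp53ΔIECAktE17K tumour lay above every Trp53ΔIEC tumour in 8 of the 37 members (21.6%), and 0 members showed the opposite, against 8.34% and 5.88% of all genes. A log2 fold change above 0 was found in 29 of the 37, against 51.1% of all genes. The median log2 fold change was 0.31 over the members and 0.01 over all genes tested, and it was 0.51 over the 26 members that are not tRNA synthetases and 0.02 over the 11 synthetases. Because the members were chosen with earlier results of these data known, these shares and medians describe the list and test nothing.

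The calls changed when a single tumour was left out. When any 1 of the 4 Trp53ΔIEC tumours was left out, none of the 37 members was called, while 0.379% to 1.28% of all genes were called higher. Without Trp53ΔIECAktE17K replicate 1 the called member was Slc7a3 alone, while 0.927% of all genes were called higher. Without replicate 2, 3 or 4 of that group 3 of the 5 were called each time, while 1.5%, 3.37% and 4.16% of all genes were called higher. Slc7a3 and Slc7a5 were called in all 3 of these fits. Limma-voom called Slc7a3, Slc7a5 and Slc3a2 but not Chac1 and Trib3 (adjusted p = 0.0553 and 0.0780), while 2.61% of all genes were called higher. Titles carry a letter of unstated meaning, A in Trp53ΔIECAktE17K replicates 1 and 2 but B elsewhere. The codes of the deposited tables differ from it, with A in every Trp53ΔIECAktE17K tumour, where the letter and the genotype cannot be told apart. With the title letter as a term, 0 members were called, while 0.544% of all genes were called higher, and the adjusted p of Slc7a5, the smallest of the 5, was 0.0507. In that fit the log2 fold changes were 1.02 for Slc7a5, 1.02 for Slc3a2, 2.47 for Trib3, 1.34 for Chac1 and 2.06 for Slc7a3. Since letter A occurs only in Trp53ΔIECAktE17K replicates 1 and 2, the genotype term there compares only replicates 3 and 4 with the Trp53ΔIEC tumours. The log2 fold changes of the 5 called members stayed above 0 in each of the 8 fits without 1 tumour, from 0.70 for Slc7a5 to 2.70 for Slc7a3.

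**Figure D1:**
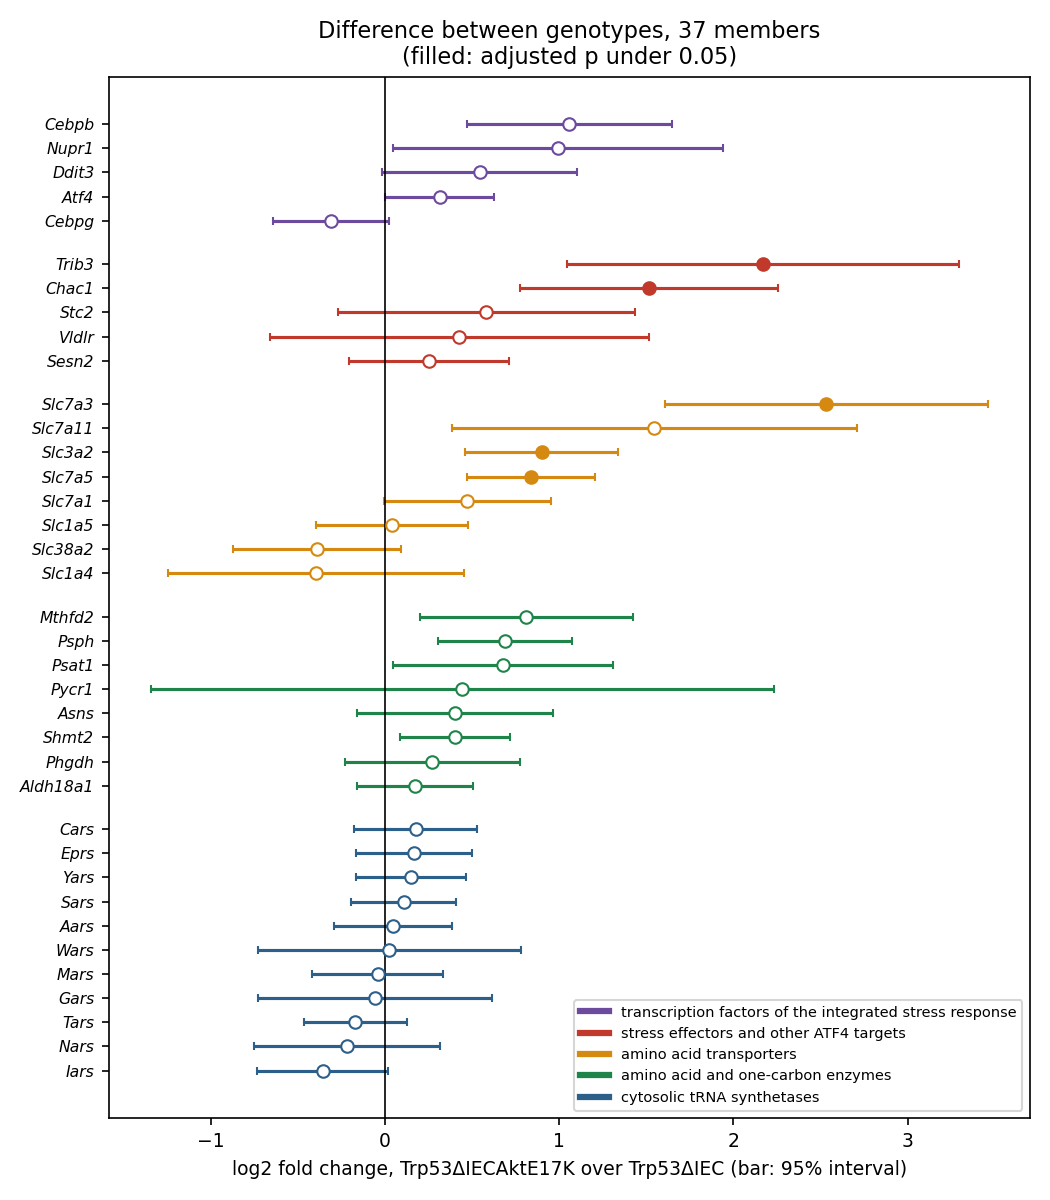
Log2 fold change (horizontal axis, Trp53ΔIECAktE17K over Trp53ΔIEC) of the 37 members, grouped by role in colour, with 95% intervals as bars and filled points at an adjusted p under 0.05. The 5 filled points are all right of 0 and belong to transporters and stress effectors, while the 11 tRNA synthetases lie between -0.36 and 0.18.

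Atf4 (ENSMUSG00000042406, chromosome 15, 80255184 to 80257541, plus strand, mm10), the gene of the factor itself, had 224.2, 194.0, 253.3 and 264.2 CPM in Trp53ΔIEC replicates 1 to 4. In the same order, the Trp53ΔIECAktE17K tumours had 259.4, 291.1, 291.7 and 321.0 CPM. The groups overlapped, since Trp53ΔIEC replicate 4 lay above Trp53ΔIECAktE17K replicate 1, and the fold change was 1.24 (95% interval 1.002 to 1.54, adjusted p = 0.234, edgeR). Per kilobase of exon Atf4 had the highest level of the 37 members, at 99.2 and 123.3 CPM per kilobase in the 2 groups.

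Ddit3, which encodes CHOP, the factor that ATF4 induces when stress lasts, had 23.2, 18.6, 15.9 and 17.2 CPM in Trp53ΔIEC against 28.2, 35.2, 16.6 and 29.2 CPM in Trp53ΔIECAktE17K tumours. In 3 of the latter tumours it lay above all Trp53ΔIEC tumours, and in replicate 3 it lay among them (fold change 1.46, adjusted p = 0.252). Cebpb, a C/EBP partner of ATF4 that inflammatory signals also induce, had 14.6, 31.4, 27.4 and 27.0 CPM against 40.9, 61.7, 45.1 and 61.5 CPM. Its groups did not overlap and its fold change was 2.08 (1.38 to 3.13), but the adjusted p was 0.0615. As a limit of these counts, 20.7% of the exon bases of Cebpb are shared with Tmem189 on the other strand.

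Nupr1, a small stress-induced chromatin protein, spread widely within both groups, from 73.3 to 222.5 CPM in Trp53ΔIEC and from 158.8 to 404.6 CPM in Trp53ΔIECAktE17K tumours (log2 fold change 0.99, adjusted p = 0.216). Cebpg, the partner with which ATF4 pairs at amino acid response genes, was the 1 factor of the 5 with a lower mean, 146.6 ± 20.4 against 118.1 ± 15.3 CPM (SD, n = 4 each, adjusted p = 0.269). None of the 5 factors was called by edgeR, and DESeq2 called Cebpb (adjusted p = 0.00505) and limma-voom 0. At an unadjusted p under 0.05 in edgeR 3 of the 5 were higher, where 12.8% of all genes tested were.

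Of the 5 stress effectors and other targets, 2 rose, where 3.44% of all genes tested did. Chac1 (ENSMUSG00000027313, chromosome 2, 119351229 to 119354381, plus strand), which encodes an enzyme that breaks down glutathione, had 6.47, 3.46, 5.64 and 6.93 CPM in the Trp53ΔIEC tumours. In the Trp53ΔIECAktE17K tumours it had 16.6, 19.3, 9.20 and 19.2 CPM. Replicate 3 was the lowest of its group and still lay above all 4 Trp53ΔIEC tumours. The fold change was 2.85 (1.71 to 4.77, log2 1.51 ± 0.32 SE, adjusted p = 0.0419).

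Trib3 (ENSMUSG00000032715, chromosome 2, 152337422 to 152344032, minus strand), which encodes a pseudokinase known to bind AKT and to act back on ATF4 and CHOP, had 7.08, 4.55, 6.15 and 12.6 CPM in the Trp53ΔIEC tumours. Its level in the Trp53ΔIECAktE17K tumours was 17.6, 34.7, 64.3 and 19.9 CPM. Here replicate 3 was the highest, the reverse of its place for Chac1 and Ddit3. The fold change was 4.49 (2.06 to 9.80, log2 2.17 ± 0.49 SE, adjusted p = 0.0490), and the log2 fold change was 1.67 without Trp53ΔIECAktE17K replicate 3 (adjusted p for its 8 fits without 1 tumour from 0.0387 to 0.129).

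Sesn2, which encodes a leucine sensor that restrains mTORC1, had 18.0 to 23.8 CPM against 17.6 to 29.5 CPM. Vldlr, a lipoprotein receptor gene, had 16.9 to 41.3 against 11.5 to 60.5 CPM, and Stc2, which encodes a secreted glycoprotein, had 16.0 to 58.6 against 35.2 to 53.3 CPM. The log2 fold changes of these 3 genes were 0.25, 0.43 and 0.58 (adjusted p = 0.517, 0.657 and 0.414), and their groups overlapped.

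Among the 8 amino acid transporters 3 rose and 0 fell, where 3.44% and 0.756% of all genes tested did. Slc7a5 and Slc3a2 encode the light and the heavy chain of a heterodimer that brings leucine and other large neutral amino acids into the cell in exchange for glutamine. Slc7a5 (ENSMUSG00000040010, chromosome 8, 121881150 to 121907694, minus strand) had 96.8, 101.6, 88.9 and 111.2 CPM in Trp53ΔIEC against 159.4, 149.4, 231.6 and 173.2 CPM in Trp53ΔIECAktE17K tumours. All 4 values of the second group lay above all 4 of the first, with a fold change of 1.79 (1.39 to 2.31, log2 0.84 ± 0.16 SE, adjusted p = 0.0297).

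Slc3a2 (ENSMUSG00000010095, chromosome 19, 8706882 to 8723369, minus strand) had 146.8, 170.9, 147.3 and 143.0 CPM in Trp53ΔIEC against 322.0, 193.9, 356.0 and 262.2 CPM in Trp53ΔIECAktE17K tumours. For both chains replicate 3 was the highest and replicate 2 the lowest tumour of its group. The fold change of Slc3a2 was 1.87 (1.38 to 2.53, log2 0.90 ± 0.19 SE, adjusted p = 0.0418). On the scale of CPM per kilobase of exon, Slc3a2 stood at 43.1 and 80.3 and Slc7a5 at 26.9 and 48.1, so the heavy chain had the higher level in each group.

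Slc7a11, which encodes the cystine and glutamate exchanger that uses the same heavy chain, had 41.6, 23.7, 24.9 and 41.5 CPM in Trp53ΔIEC against 73.1, 34.3, 203.7 and 73.5 CPM in Trp53ΔIECAktE17K tumours. Replicate 2 lay within the range of the Trp53ΔIEC tumours and replicate 3 far above the rest. Its fold change was 2.92 (1.31 to 6.53, adjusted p = 0.132), and the log2 fold change of 1.55 became 0.88 without replicate 3. That tumour also had the lowest summed level of colon epithelium markers of the 8 tumours, 6231 CPM against 7443 to 14990 CPM in the other 7, and the part of this in the result was not tested.

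Slc7a3 (ENSMUSG00000031297, chromosome X, 101079210 to 101086020, minus strand), which encodes a transporter of arginine, lysine and ornithine, had the smallest p of the 37 members and ranked 160 among all genes tested. It had 1.34, 2.11, 1.90 and 1.91 CPM in Trp53ΔIEC against 7.92, 19.0, 8.94 and 6.24 CPM in Trp53ΔIECAktE17K tumours. The groups stood well apart, with replicate 2 highest, and the fold change was 5.79 (3.05 to 11.0, log2 2.53 ± 0.41 SE, adjusted p = 0.0197). It was also the member with the lowest level per kilobase of exon, 0.479 and 2.78 CPM per kilobase. Slc7a1, the more widely expressed transporter of the same amino acids, had 72.5 ± 17.8 against 100.7 ± 19.5 CPM (SD, n = 4 each) and overlapping groups (fold change 1.39, 0.997 to 1.93, adjusted p = 0.244).

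The carriers of small neutral amino acids were not called. Slc1a5, the main glutamine carrier of many tumours, had a fold change of 1.03 (0.759 to 1.39, adjusted p = 0.933). Slc1a4, which carries alanine, serine and cysteine, had 99.3 ± 41.4 against 75.4 ± 29.7 CPM, and Slc38a2, which carries alanine and glutamine and is translated more when amino acids are short, had 382.5 ± 36.0 against 292.4 ± 81.2 CPM (SD, n = 4 each). The log2 fold changes of these last genes were -0.40 and -0.39 (adjusted p = 0.588 and 0.339). The 95% intervals of the fold for these 3 genes together reached from 0.422 to 1.39, and their difference from Slc7a5 was not tested.

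**Figure D2:**
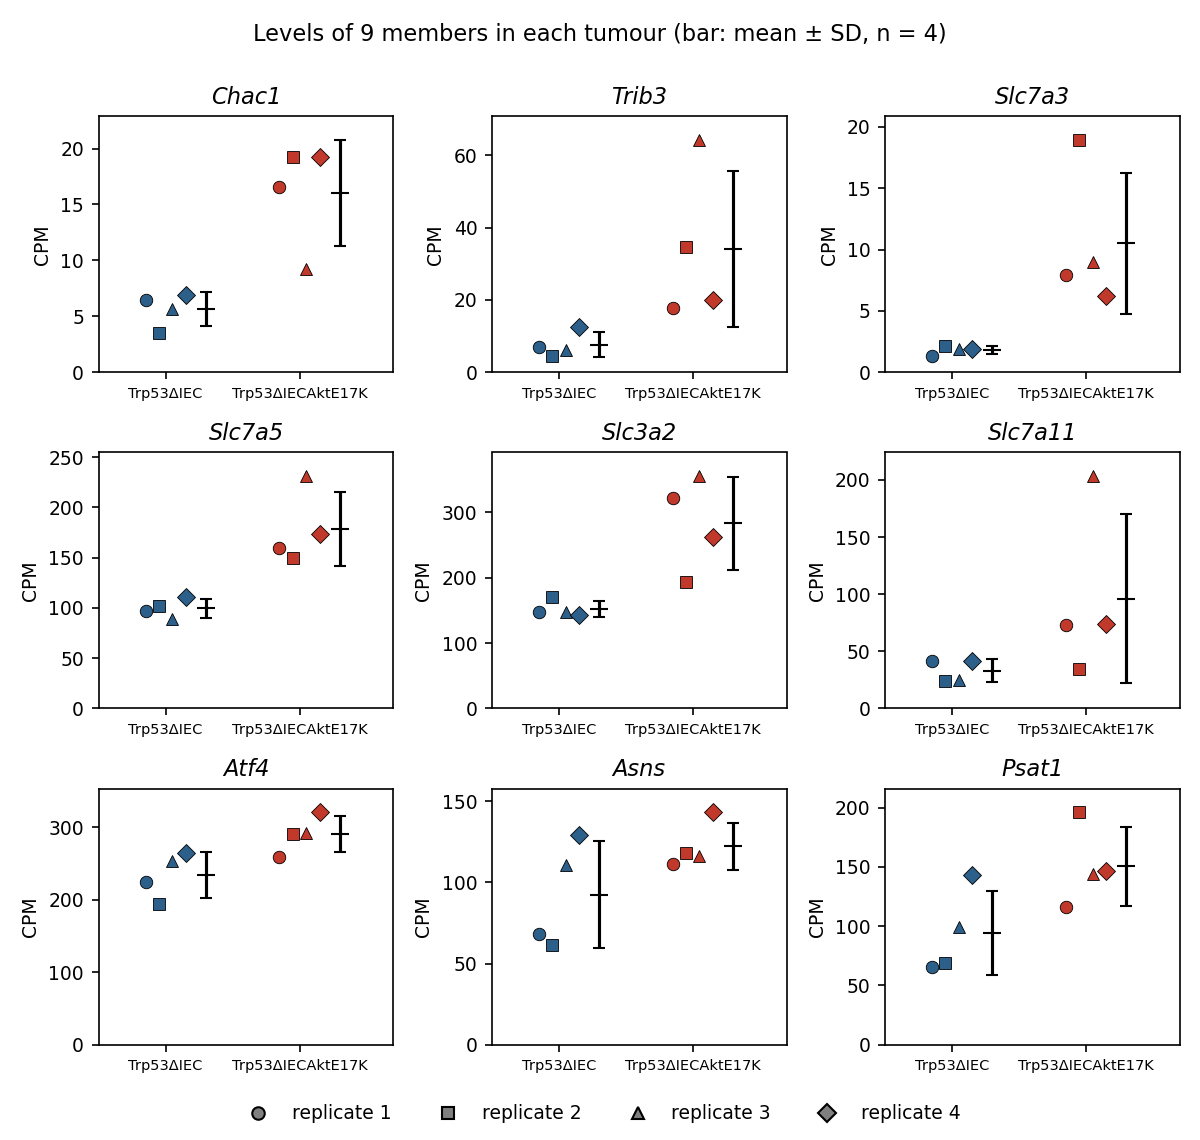
CPM (vertical axes, from 0) of 9 members in each tumour, with blue points for Trp53ΔIEC, red points for Trp53ΔIECAktE17K, a symbol for each replicate number and black bars for the mean ± SD (n = 4). The groups are separate for Chac1, Trib3, Slc7a3, Slc7a5 and Slc3a2 and overlap for Slc7a11, Atf4, Asns and Psat1, and the triangle of Trp53ΔIECAktE17K replicate 3 is at 64.3 CPM for Trib3 and 203.7 CPM for Slc7a11.

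All 8 enzymes of amino acid and one-carbon metabolism had a fold change above 1, and none was called by edgeR. At an unadjusted p under 0.05 in edgeR 4 of the 8 were higher, where 12.8% of all genes tested were. DESeq2 called 1, Psph, and limma-voom 0. Asns, which encodes asparagine synthetase and is a standard reporter of ATF4 activity, had 68.4, 61.3, 111.1 and 129.3 CPM in Trp53ΔIEC against 111.2, 118.0, 116.2 and 143.5 CPM in Trp53ΔIECAktE17K tumours. Trp53ΔIEC replicates 3 and 4 lay close to or within the other group, and the fold change was 1.32 (0.894 to 1.95, adjusted p = 0.392).

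Serine is made from a glycolytic intermediate in 3 steps, by the products of Phgdh, Psat1 and Psph in that order. Phgdh, the first enzyme, had 36.6 ± 8.78 and 44.2 ± 9.74 CPM (SD, n = 4 each, fold change 1.21, adjusted p = 0.521). Psat1, the aminotransferase, had 65.2, 69.3, 99.6 and 142.8 CPM against 116.3, 196.4, 143.7 and 146.3 CPM, with Trp53ΔIEC replicate 4 again within the other group (log2 fold change 0.68, adjusted p = 0.207).

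Psph, the phosphatase of the last step, had 19.2, 23.8, 23.5 and 31.8 CPM against 39.1, 39.5, 38.2 and 41.9 CPM. Its groups did not overlap and the Trp53ΔIECAktE17K tumours lay within 4 CPM of each other, with a fold change of 1.61 (1.24 to 2.11, adjusted p = 0.0614). On its exons, 10.4% of the bases are shared with Cct6a on the other strand, as a limit of the counts. DESeq2's adjusted p for Psph was 0.00406, and edgeR's with upper-quartile scaling 0.0460.

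The mitochondrial folate enzymes use serine as the donor of carbon units. Shmt2, the entry enzyme, had 129.9, 123.5, 152.7 and 157.9 CPM against 162.3, 190.9, 215.8 and 176.3 CPM, without overlap (fold change 1.32, adjusted p = 0.144). Mthfd2, the next enzyme, had 25.9, 25.5, 43.6 and 31.6 CPM against 33.0, 61.2, 58.0 and 70.0 CPM, and its Trp53ΔIECAktE17K replicate 1 lay below Trp53ΔIEC replicate 3 (fold change 1.75, adjusted p = 0.133).

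Proline synthesis was represented by Aldh18a1, for its first enzyme, and Pycr1, for its last. Aldh18a1 had 97.2 ± 15.4 and 109.7 ± 11.9 CPM (SD, n = 4 each, adjusted p = 0.540). Pycr1 was the most variable of all 37 members within Trp53ΔIECAktE17K, at 360.4, 45.5, 28.3 and 95.6 CPM, and had 39.6, 169.2, 83.1 and 97.2 CPM in the Trp53ΔIEC tumours (adjusted p = 0.789). The high value belongs to replicate 1, the tumour with the highest summed level of squamous epithelium markers (16526 CPM against 82.4 to 2761 CPM in the other 7), and the part of this in the result was not tested.

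The 11 cytosolic tRNA synthetases, which load amino acids onto their tRNAs, showed no called change in edgeR, where 0 of them had an unadjusted p under 0.05. DESeq2 and limma-voom called 0 of them as well, with 1 and 0 at an unadjusted p under 0.05. Their log2 fold changes ran from -0.36 for Iars (isoleucine) to 0.18 for Cars (cysteine), with 6 above and 5 below 0. Their 95% intervals of the fold together spanned 0.593 to 1.72. The largest difference in size was that of Iars, with 150.9 ± 24.0 against 117.9 ± 20.3 CPM (SD, n = 4 each, adjusted p = 0.264). Sars, for serine, had 201.3 ± 12.1 against 216.9 ± 30.6 CPM, and its interval of the fold ran from 0.874 to 1.33. Wars, for tryptophan, which interferon also induces, varied more, from 150.1 to 333.2 CPM in Trp53ΔIEC and from 147.6 to 394.3 CPM in Trp53ΔIECAktE17K tumours. The Wars value was lowest in replicate 1 of each group. The remaining synthetases, Aars, Gars, Mars, Nars, Tars, Eprs and Yars, had log2 fold changes between -0.22 and 0.17. Gars, Nars and Wars were among the 5 highest of the members by CPM per kilobase of exon.

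**Figure D3:**
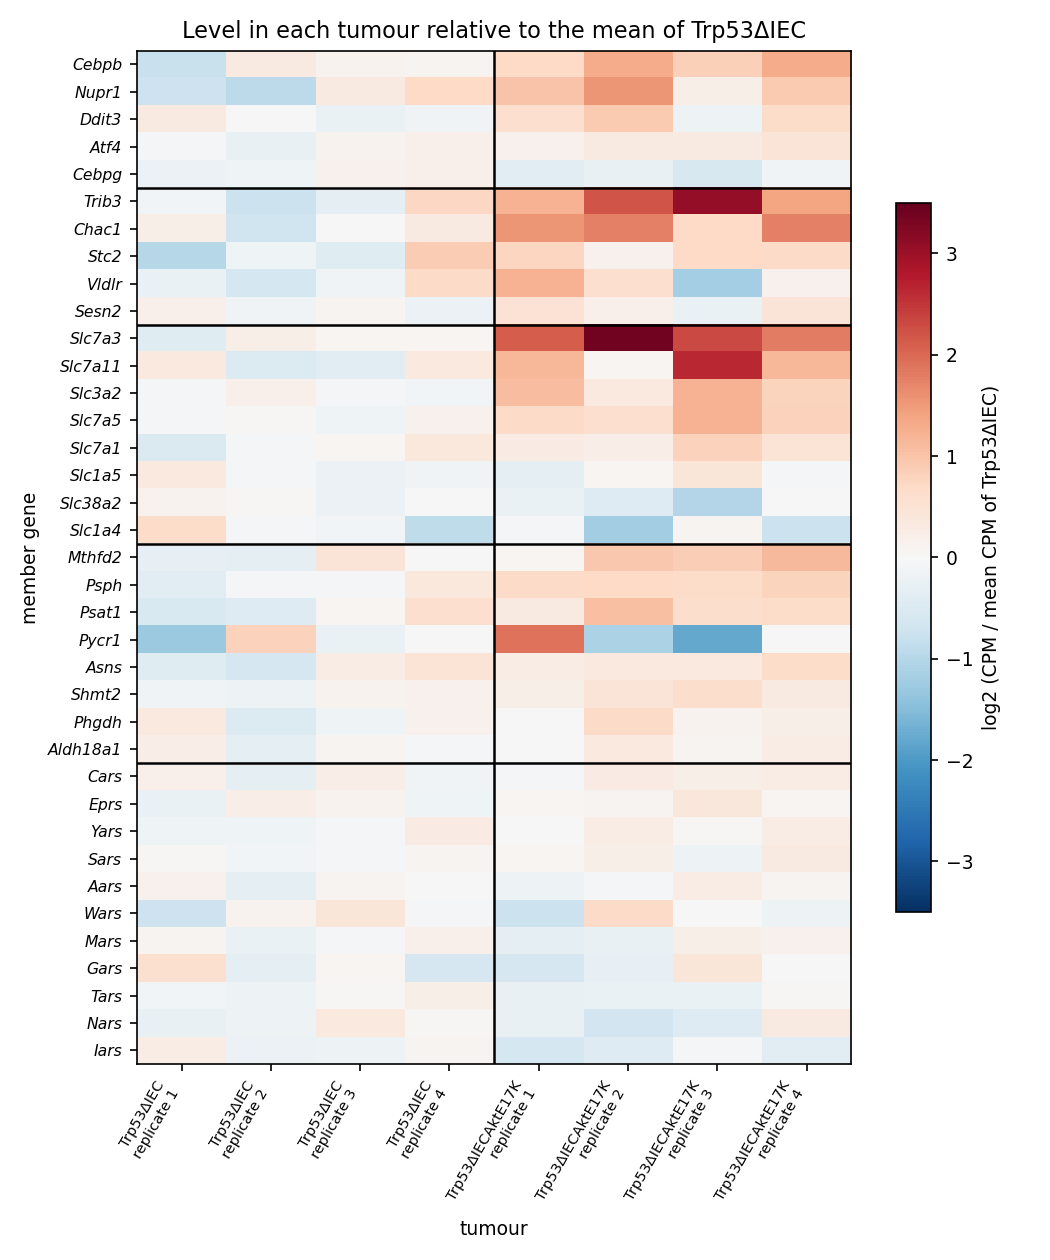
Log2 ratio of CPM in each tumour (columns) to the mean of the Trp53ΔIEC tumours for the 37 members (rows, in blocks by role, ordered by fold change), in red above and blue below 0. The 4 Trp53ΔIECAktE17K columns on the right are above 0 for Trib3, Chac1, Slc7a3, Slc3a2 and Slc7a5, in pale red for some tumours of Slc3a2 and Slc7a5. Most cells of the tRNA synthetase block at the bottom are pale too, in red or blue.

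The tumours of a group were not alike over the members. Within Trp53ΔIEC, replicate 4 was the highest of its group in 17 members and replicate 2 the lowest in 17 of the 37. Within Trp53ΔIECAktE17K, replicate 3 was the highest in 13 and the lowest in 10, and replicate 1 was the lowest in 19. Thus in replicate 3 Trib3, Slc7a11, Slc7a5 and Slc3a2 stood at the top of the group while Chac1, Ddit3, Nupr1, Sesn2 and Vldlr stood at the bottom.

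Other genes of the pathway, from 8 lists, gave 3 higher (2.29%) and 0 lower calls among 131 tested genes. Of all genes tested, 3.44% were called higher and 0.756% lower. At an unadjusted p under 0.05, 16 of the 131 (12.2%) were higher and 5 lower, where 12.8% and 8.07% of all genes were. The median log2 fold change over these lists was -0.003. Among 15 further ATF4 targets tested, Atf5, a factor related to ATF4 that guards mitochondrial function, rose from 41.2 ± 8.0 to 79.7 ± 15.1 CPM (SD, n = 4 each, adjusted p = 0.0364). The next in that list by p were Gadd45a and Jdp2, at 1.24 and 1.00 on the log2 scale (adjusted p = 0.109 and 0.121). Of 23 other amino acid transporters 1 rose, Slc7a2, which carries the same cationic amino acids as Slc7a3, from 3.30 ± 0.473 to 18.7 ± 14.3 CPM (adjusted p = 0.0490). Its Trp53ΔIECAktE17K values were 36.4, 24.3, 7.43 and 6.71 CPM, all above the highest Trp53ΔIEC value of 3.75 CPM. Slc36a1, a lysosomal amino acid exporter, and Slc1a3, a glutamate carrier, did not pass (log2 fold change 0.78 and 5.73, adjusted p = 0.0664 and 0.0742), and Slc1a3 had 29.7 CPM in Trp53ΔIECAktE17K replicate 3 against 1.11 to 1.74 CPM in the rest of the group.

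Among 23 other one-carbon, folate and proline enzymes, Gldc rose. It encodes the glycine decarboxylase of the mitochondrial glycine cleavage system. It had 0.957, 1.05, 1.79 and 4.05 CPM in Trp53ΔIEC and 13.1, 22.7, 10.6 and 5.22 CPM in Trp53ΔIECAktE17K tumours (fold change 6.58, adjusted p = 0.0487). The proline oxidase gene Prodh did not pass, at -0.96 on the log2 scale (adjusted p = 0.116).

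The genes that act before ATF4 gave no call. Of 12 genes for eIF2 kinases, the phosphatase subunits that reverse them and the eIF2B exchange factor, edgeR called none (1 at an unadjusted p under 0.05), DESeq2 1 and limma-voom 0. The lowest p belonged to Ppp1r15a, the feedback subunit induced by the response (25.8 ± 2.24 against 37.3 ± 7.13 CPM, adjusted p = 0.124). Eif2b2 and Eif2b1 followed with log2 fold changes of 0.31 and -0.24. Of 20 genes of the endoplasmic reticulum unfolded protein response, none was called by edgeR, DESeq2 or limma-voom, and 0 had an unadjusted p under 0.05 in edgeR. The median was -0.08, and the lowest p values were those of Hyou1, Canx and Atf6, with log2 fold changes of -0.47, -0.29 and -0.33.

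The other 12 cytosolic synthetase and scaffold genes, 17 mitochondrial synthetase genes and 10 mitochondrial stress genes tested had 0 calls and medians of -0.01, -0.06 and -0.17. By p they were led by Farsb, Hars and Farsa (log2 fold change -0.28, 0.15 and 0.17), by Wars2 and Iars2 among those reported (-0.43 and -0.34), and by Oma1, Dnaja3 and Dele1 (-0.42, -0.32 and -0.27). At an unadjusted p under 0.05 these 3 lists had 0 higher and 1, 1 and 2 lower genes in edgeR, where 12.8% and 8.07% of all genes were. DESeq2 called 0, 1 and 1 of them, and limma-voom 0 in each list.

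**Figure D4:**
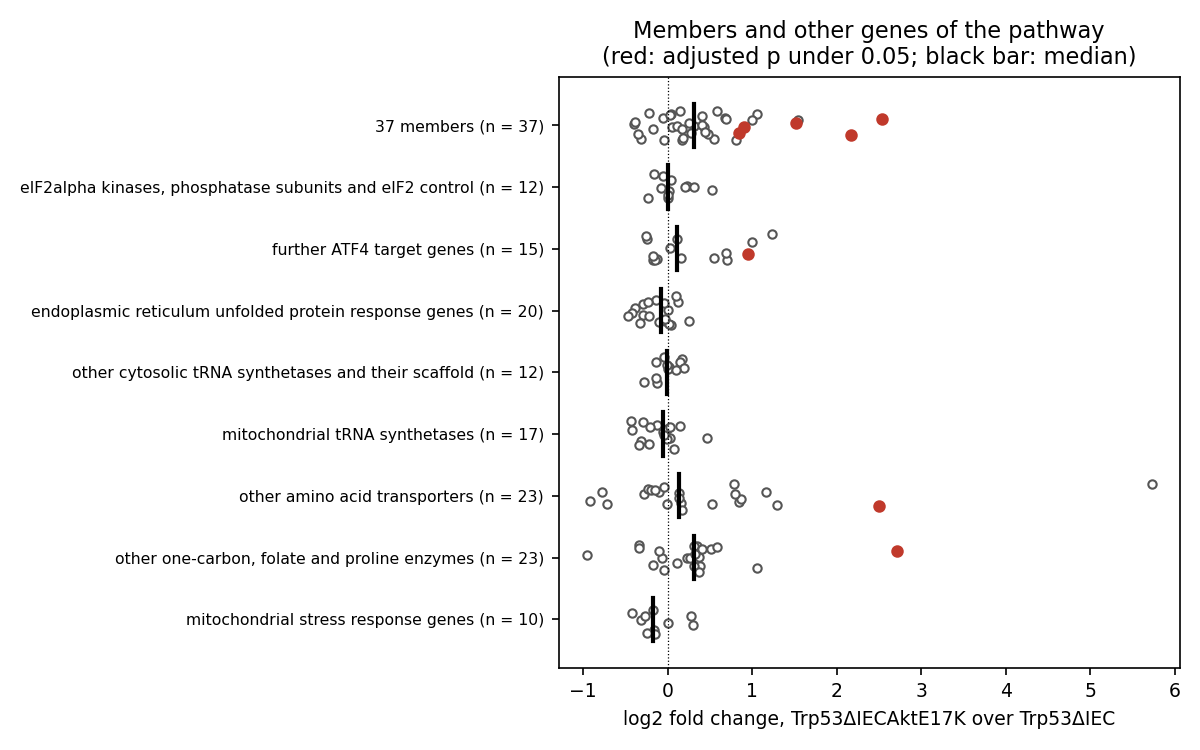
Log2 fold change (horizontal axis, Trp53ΔIECAktE17K over Trp53ΔIEC) of the 37 members and of 8 lists of related genes, 1 point a gene with red for an adjusted p under 0.05 and a black bar for the median. The medians are 0.31 for the members and between -0.17 and 0.32 for the lists, and the red points are the 5 called members, Atf5, Slc7a2 and Gldc.

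Marker RNA of several cell types differed between the genotypes too. Whether the cellular make-up differed, and its part in the member values, was not tested. For all genes tested the shares called were 3.44% higher and 0.756% lower, and 12.8% and 8.07% at an unadjusted p under 0.05. Smooth muscle markers were called higher in 7 of 8, with summed levels of 311 to 502 CPM in Trp53ΔIEC and 1133 to 1829 CPM in Trp53ΔIECAktE17K tumours. Fibroblast markers were called higher in 4 of 10 (2308 to 3550 against 4358 to 7200 CPM) and squamous epithelium markers in 4 of 9 (82.4 to 265.8 against 203.8 to 16526 CPM). Colon epithelium markers were called in 0 of 12, but 11 of the 12 had a log2 fold change below 0 (median -0.46) and 4 were lower at an unadjusted p under 0.05. Their summed levels were 11151 to 14158 CPM in Trp53ΔIEC against 7443 (replicate 1), 9266 (replicate 2), 6231 (replicate 3) and 14990 CPM (replicate 4) with AktE17K, and 3 of those 4 tumours lay below every Trp53ΔIEC tumour. Endothelium markers were called higher in 1 of 6, with all 6 above 0 and 5 at an unadjusted p under 0.05 (128.3 to 251.0 against 217.7 to 418.2 CPM). Goblet cell markers were called higher in 1 of 7, with 6 above 0 (638 to 2660 against 1205 to 5132 CPM), and neutrophil markers in 1 of 7, with 4 above 0 (30.5 to 503.7 against 209.9 to 900.2 CPM). Macrophage and T cell markers were each called in 0 of 7 (490 to 1071 against 422 to 1224 CPM, and 22.5 to 82.8 against 19.8 to 44.7 CPM). Of the macrophage markers 4 were above 0 (median log2 fold change 0.05). Of the T cell markers 6 were below 0 (median -1.12), with 0 at an unadjusted p under 0.05. Plasma cells, which are rich in stress response genes, had 0 called of 6 tested markers and 754 to 1043 against 762 to 2512 CPM. Enteric neuron and glia markers were called higher in 3 of 6 tested (3.77 to 9.78 against 22.7 to 52.2 CPM), and Sox10 was at 0 in all Trp53ΔIEC tumours. Heart muscle markers were called higher in 6 of 8 tested (36.9 to 115.1 against 153.4 to 220.5 CPM), while of 10 tested hepatocyte markers 1 was called lower (74.2 to 135.4 against 34.0 to 161.3 CPM). Dividing cell markers were called in 0 of 8 (816 to 1284 against 768 to 1316 CPM).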

How the data were processed

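The authors deposited counts, 1 whole number of reads per Ensembl gene and tumour (8 tumours), with no normalisation. Per the submitters' processing notes, STAR 2.3.0, HTSeq 0.6, DESeq2 1.8.1, CASAVA 1.8.2 and SAMtools 1.2 were used with build mm10, with no role stated. For the annotation release and strand setting: not given in the sources used here. The 5 closing lines of each table, for reads in no gene (9.74% to 11.7% of uniquely placed reads), in more than 1 gene (1.93% to 2.32%) or placed several times, were left out. Symbols, positions and exon lengths came from GENCODE M21 on GRCm38, which names 36602 of the 38355 identifiers, and promoter windows from RefSeq on GRCm38.p6.

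Counts were tested with edgeR 4.0.16 in R 4.3.3: filterByExpr, TMM scaling and a robust quasi-likelihood F-test with the group as the only term, checked on simulated counts. Standard errors and 95% intervals were derived from the F statistic. CPM per kilobase uses the union of annotated exons. No test was run over a list. Values by tumour are given for called members, for Atf4, Ddit3, Asns and Psat1, and for further members by unadjusted p up to 14, and from each related list the 3 members with the smallest p are named. Some of the genes these rules select are not reported here. Other tumour values shown were chosen after they were seen. The members and lists were chosen with earlier results of these data known. Alternatives were DESeq2 1.42.0, limma-voom (limma 3.58.1), RLE and upper-quartile scaling, no filter, the replicate number or the title letter as a term, and each tumour left out. P-values apply to variation between mice, and counts cover no PCR duplication.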

Additional observations from a re-analysis of the deposited data

Results flagged for a closer look

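Among the 74 sets of 4 tumours (37 members in 2 groups), 4 had a highest or lowest tumour that stood apart from the others by more than Dixon's 95% value, where chance gives about 1 in 20. Stc2 was lowest in Trp53ΔIECAktE17K replicate 2, at 35.2 CPM against 50.4 to 53.3 CPM in the rest of the group. Slc3a2 was highest in Trp53ΔIEC replicate 2, at 170.9 CPM against 143.0 to 147.3 CPM. Tars was highest in Trp53ΔIECAktE17K replicate 4, at 166.4 CPM against 135.2 to 139.8 CPM. Eprs was highest in Trp53ΔIECAktE17K replicate 3, at 207.1 CPM against 166.5 to 169.8 CPM.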

How the results depend on the processing

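In place of 5 higher members, DESeq2 called 8 (the 5 with Cebpb, Psph and Slc7a11), limma-voom 3, and edgeR 4 with RLE scaling, 6 with upper-quartile scaling, 4 with no filter, 0 with the replicate block, 0 with the title letter as a term and 0 to 3 with 1 tumour left out. Of all genes, 4.47% were called higher with DESeq2 (of the 38355 in the count tables, tested or not), 2.61% with limma-voom and 3.13% with RLE scaling. The shares were 3.59% with upper-quartile scaling, 1.96% with no filter, 0.29% with the replicate block and 0.544% with the title letter. With 1 tumour left out they ran from 0.379% to 4.16%. No setting called a member lower, and the members' median log2 fold change stayed between 0.23 and 0.37. The replicate numbers showed no sign of pairing the tumours (correlations of same-numbered tumours -0.24 to 0.01), though such correlations cannot exclude a pairing and the labels do not state one. Leaving out both tumours with the highest squamous marker sums, chosen after seeing the data, gave 2 members (Slc7a3 and Trib3), while 2.68% of all genes were called higher. Over all genes, the 569 higher and 125 lower calls became 1715 and 764 with DESeq2, 48 and 2 with the replicate block, 90 and 6 with the title letter, 64 to 702 and 10 to 247 with 1 tumour left out, and 460 and 223 without both squamous tumours. For related genes the 3 higher and 0 lower calls became 9 and 3 with DESeq2, 1 and 0 with RLE scaling, 0 and 0 with the replicate block, 1 and 0 with the title letter, 0 to 2 and 0 with 1 tumour left out, and 1 and 1 without both squamous tumours. Fewer tumours or more terms leave fewer residual degrees of freedom, and the part of this in the changed calls was not tested. Slc7a3, with 34 reads in its lowest tumour, is the member most limited by depth.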
